A study of Mus musculus with 4 samples.

Results

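The 8 genes Il1a, Il1b, Il1rn, Il6, Tnf, Acod1, Ptgs2 and Nos2, which encode proinflammatory cytokines, an IL-1 antagonist and enzymes of activated cells, were read on 4 arrays of cultured primary mouse hepatocytes. They were taken by name, as every noncontrol probe whose gene name in the scanner tables was one of the 8 (Acod1 carries its older name Irg1 there), which gave 13 probes among the 46291 probes with a gene name and 8 genes among 27248. The 4 groups held 1 array each and had no replicates. Control hepatocytes came from Drp1 flox/flox mice and Drp1LiKO hepatocytes from their Alb-Cre Tg/+ Drp1 flox/flox littermates, all labelled C57BL/6, and each genotype was cultured either with 200 μM palmitate, the common saturated fatty acid, or untreated. All cells were harvested 24 h after seeding on collagen in high-glucose medium with insulin and serum. The number and age of the animals behind each array were not given in the labels.

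Both genotypes carried the floxed Drp1 alleles, and the albumin promoter drives Cre in hepatocytes. Liver cells in which this promoter is not active keep Drp1, the dynamin-related GTPase of mitochondrial fission. On the brighter of 2 probes, transcripts of its gene Dnm1l read 3.05 and 3.06 in the control arrays and 1.68 and 1.63 in the Drp1LiKO arrays (log2 intensity relative to the array's 75th percentile, the scale of every level below). The differences between genotypes were -1.38 untreated and -1.43 with palmitate, in the direction of the labels. The dimmer probe, well above background on 2 of the 4 arrays, differed by -0.37 and 0.21. All 12 hepatocyte markers were well above background on all 4 arrays, with a summed level between 2594 and 2736 times the 75th percentile intensity. The brightest Gapdh probe moved by -0.11 and -0.12 between genotypes. Between 44.7% and 51.1% of the 56605 probes were well above background per array. Both untreated arrays shared a slide and both palmitate arrays shared the other one, each slide with a scan of its own, so palmitate cannot be told apart from slide and scan in any palmitate comparison below.

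Il1a and Il1b encode the IL-1 cytokines, which signal through the receptor Il1r1, and Il1rn encodes the antagonist that occupies this receptor without signalling. Il6 acts on hepatocytes to induce acute-phase proteins, and Tnf acts through NF-kB and death pathways. Acod1 makes itaconate from a citrate cycle intermediate, Ptgs2 (COX-2) makes the precursor of the prostaglandins, and Nos2 makes nitric oxide from arginine, and all 3 are induced in activated macrophages. In the liver these genes are best known from Kupffer cells, the resident macrophages, although hepatocytes can express several of them.

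Each difference below is between 1 array and another, so no test was made and none of the differences has a replicate check. A gene was called where its levels differed at least 2-fold (1 on the log2 scale). Some probes were not well above background on 1 array of a pair. Their value there was raised to the lowest value that was well above background on that array, which lay between -4.33 and -3.54. An undetected value already above that level, such as the -3.30 of the dimmer Il1rn probe in control with palmitate, was kept. In either case the difference is given as a lower bound. The error given with a measured difference is the scanner software's own error of the 2 signals, which covers the spots and not the cells. The 284 to 288 detected probes printed 10 times had a median SD between spots of 0.034 to 0.038 per array, and of 0.16 to 0.22 for the 2 to 8 of them with levels below -2.

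The promoters of Il1b, Il6 and Acod1, which had the largest differences of the 8 genes, and that of Tnf, whose brighter probe varied little, are shown first. Each is the 250 bases before the transcription start in RefSeq (GRCm38.p6), 5′ to 3′ along the gene: Il1b at chr2:129371140-129371389 (minus strand), Il6 at chr5:30012864-30013113 (plus), Acod1 at chr14:103046762-103047011 (plus) and Tnf at chr17:35202008-35202257 (minus). Capitals mark matches to the NF-kB, AP-1 (TGANTCA), C/EBP (TTNNGNAA) and TATA box (spelled TATAAA) motifs on either strand, and no marked matches overlapped in these 4 promoters.
Il1b: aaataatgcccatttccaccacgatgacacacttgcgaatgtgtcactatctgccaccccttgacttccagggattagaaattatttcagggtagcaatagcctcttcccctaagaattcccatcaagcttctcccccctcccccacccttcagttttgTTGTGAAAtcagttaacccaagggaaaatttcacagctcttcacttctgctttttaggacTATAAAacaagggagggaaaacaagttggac
Il6: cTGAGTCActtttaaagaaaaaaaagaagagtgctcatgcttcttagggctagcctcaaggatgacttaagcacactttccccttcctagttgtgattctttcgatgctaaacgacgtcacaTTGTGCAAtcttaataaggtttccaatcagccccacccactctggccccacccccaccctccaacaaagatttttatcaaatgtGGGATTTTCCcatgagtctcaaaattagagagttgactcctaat
Acod1: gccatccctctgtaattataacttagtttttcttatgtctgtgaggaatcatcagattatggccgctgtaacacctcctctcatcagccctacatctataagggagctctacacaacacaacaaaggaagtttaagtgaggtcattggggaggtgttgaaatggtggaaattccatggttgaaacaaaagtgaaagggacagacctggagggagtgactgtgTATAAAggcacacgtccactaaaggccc
Tnf: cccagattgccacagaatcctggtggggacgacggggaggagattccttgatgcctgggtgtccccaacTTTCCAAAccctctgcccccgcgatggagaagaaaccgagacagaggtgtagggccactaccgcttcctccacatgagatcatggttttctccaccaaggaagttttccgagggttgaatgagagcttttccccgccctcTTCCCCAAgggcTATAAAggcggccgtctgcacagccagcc

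All but Acod1 of these 4 held a C/EBP match, the Il1b one from 91 to 84 bases and the Il6 one from 128 to 121 bases before the start. Il6 alone among the 7 members with a promoter in the table held an NF-kB match, from 44 to 35 bases before the start, and it also held an AP-1 match from 249 to 243 bases before it. TATA matches lay at 31 to 26 bases in Il1b, 28 to 23 in Acod1 and 29 to 24 in Tnf. Of the other members, the Il1a promoter held an AP-1, a C/EBP and a TATA match, the Ptgs2 promoter 2 C/EBP positions, at 69 to 62 and 25 to 18 bases, and each of the 3 Il1rn promoters an AP-1 or a C/EBP match. The same window held NF-kB in 3.90%, AP-1 in 6.75%, C/EBP in 36.8% and TATA in 12.4% of all 32851 promoters, so a C/EBP match is common. An interferon element (GAAANNGAA), held by 7.13% of all promoters, matched none of the 9 promoters of the 7 members found in the table, and Nos2 was not matched. Such matches describe the letters of this window only.

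Il1b was lowest in untreated control cells and highest in Drp1LiKO cells with palmitate. Its brighter probe (mm9, chr2:129190347-129190406) had intensities of 8.07 in control and 50.8 in Drp1LiKO without palmitate, and of 113 and 485 with it. On the log2 scale these were -5.28 (not well above background), -2.81, -1.28 and 0.67. Drp1LiKO was therefore at least 2.45-fold higher untreated and 3.86-fold higher with palmitate (log2 difference 1.95, scanner error 0.22). Palmitate cells were at least 7.10-fold higher than untreated ones in control and 11.2-fold higher in Drp1LiKO (3.48, error 0.24). The second probe (chr2:129190880-129190939) kept the order of the 4 arrays, at -6.30 (not well above background), -4.18, -2.88 and -1.43, with 2.72-fold between genotypes under palmitate, at least 2.34-fold for palmitate in control and 6.69-fold in Drp1LiKO. At these levels it set no bound on the genotype difference without palmitate. The remaining probe, for another transcript (chr2:129195465-129195524), stayed below detection on all 4 arrays.

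Il6 had the widest gap of the 8 genes between genotypes under palmitate. Its brighter probe (chr5:30346367-30346426) had intensities of 3.97 in control and 47.4 in Drp1LiKO untreated, and of 41.1 and 445 with palmitate. The levels were -6.30 (not well above background), -2.91, -2.73 and 0.55, so untreated Drp1LiKO and palmitate-treated control cells lay close together. Drp1LiKO was 9.73-fold above control with palmitate (3.28, error 0.27) and at least 2.29-fold above it untreated. With palmitate Il6 was 11.0-fold higher in Drp1LiKO (3.46, error 0.23) and at least 2.59-fold higher in control. The second probe (chr5:30346159-30346218) read -6.19, -3.89, -4.61 and -0.42, and neither control array was well above background. It gave at least 8.68-fold between genotypes with palmitate and 11.1-fold for palmitate in Drp1LiKO, while the untreated genotype bound of 1.16-fold was too low for a call.

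Acod1 followed the same order on its only probe (chr14:103455171-103455231). The intensities were 3.66, 20.5, 32.2 and 190 in untreated control, untreated Drp1LiKO, palmitate control and palmitate Drp1LiKO, or levels of -6.42 (not well above background), -4.12, -3.09 and -0.68. With palmitate, Drp1LiKO was 5.29-fold above control (2.40, error 0.30). Palmitate cells were 10.9-fold higher in Drp1LiKO (3.44, error 0.32) and at least 2.02-fold higher in control, just past the threshold. No bound could be set on the untreated genotype difference, because the Drp1LiKO value lay just below -4.10, the lowest value well above background in untreated control. Among the 14591 genes measured on both Drp1LiKO arrays, only the heme oxygenase gene Hmox1 (4.42) and the heat shock gene Hspa1a (3.85) had larger rises with palmitate than Il1b, Il6 and Acod1, which came next in that order.

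**Figure D1:**
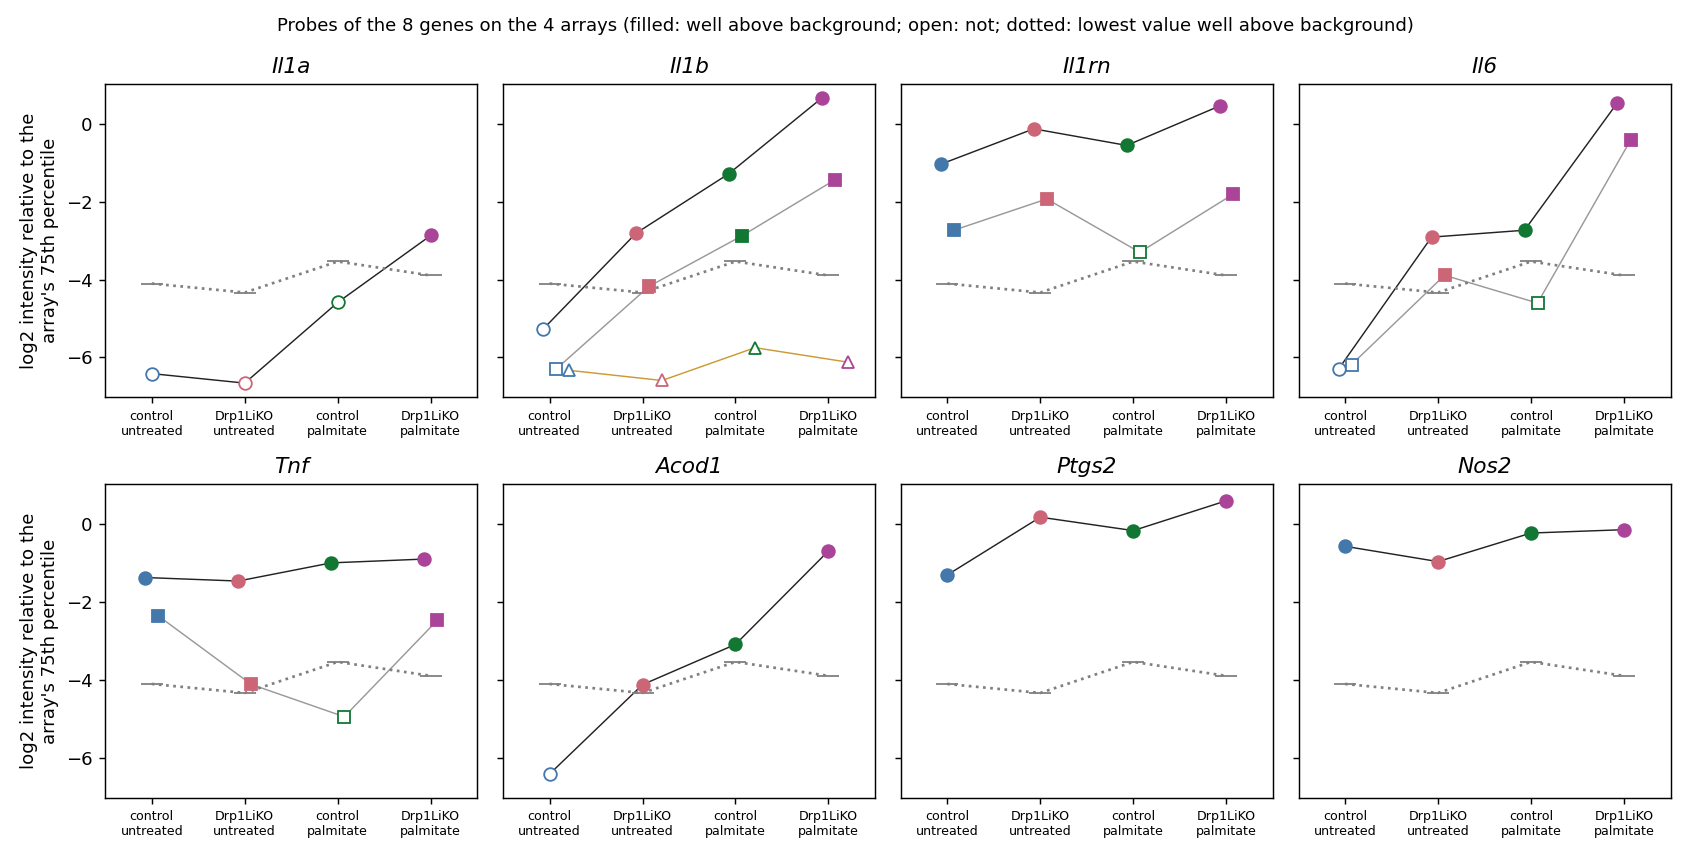
Levels of all 13 probes of the 8 genes on the 4 arrays, as log2 intensity relative to each array's 75th percentile, with 1 value per array and no replicates. Filled symbols were well above background, open ones were not, lines join the values of 1 probe, and the dotted line marks the lowest value well above background on each array. The brighter Il1b and Il6 probes and the Acod1 probe climb from below that line in untreated control to between -0.68 and 0.67 in Drp1LiKO with palmitate, whereas no difference of Nos2 or of the brighter Tnf probe reaches 2-fold.

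Il1a passed background on 1 array only, that of Drp1LiKO with palmitate, at -2.87 (chr2:129125994-129126053). The other 3 values were -6.42 in untreated control, -6.66 in untreated Drp1LiKO and -4.59 in control with palmitate, none of them well above background. Palmitate-treated Drp1LiKO cells were thus at least 2.77-fold above untreated ones, whereas the bound against control with palmitate was 1.59-fold and gave no call. Having passed through its brightest array only, Il1a could be called only upward toward it.

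Il1rn was detected throughout and was higher in Drp1LiKO on both slides. Its brighter probe (chr2:24206125-24206184) read -1.03 in control and -0.12 in Drp1LiKO untreated, and -0.55 and 0.46 with palmitate. The genotype difference was 1.88-fold untreated (0.91, error 0.21) and 2.02-fold with palmitate (1.02, error 0.21), on either side of the threshold by less than the scanner error. Palmitate made a difference of 1.40-fold in control and 1.50-fold in Drp1LiKO, neither of them called. The dimmer probe (chr2:24205094-24205153) read -2.73, -1.93, -3.30 and -1.81, with control under palmitate not well above background. It gave 1.75-fold between genotypes untreated and at least 2.80-fold with palmitate.

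The 2 Tnf probes disagreed. The brighter probe (chr17:35336967-35337026) read -1.37 in control and -1.46 in Drp1LiKO untreated, and -0.99 and -0.89 with palmitate. The genotype differences of -0.09 and 0.10 were smaller than their scanner errors of 0.21, and palmitate made 1.30-fold in control and 1.48-fold in Drp1LiKO, all short of a call. The dimmer probe (chr17:35336795-35336854) read -2.35 in untreated control, -4.12 in untreated Drp1LiKO, -4.95 in control with palmitate, where it was not well above background, and -2.47 in Drp1LiKO with palmitate. On it, Drp1LiKO was 3.39-fold lower untreated and at least 2.10-fold higher with palmitate, and palmitate cells were at least 2.27-fold lower in control and 3.13-fold higher in Drp1LiKO. Both probes name the same transcript in the scanner tables, and no direction is given for Tnf.

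Ptgs2 was higher in untreated Drp1LiKO than in untreated control on 2 detected values. Its probe (chr1:151954744-151954803) read -1.30 in control and 0.19 in Drp1LiKO untreated, and -0.16 and 0.61 with palmitate. Untreated Drp1LiKO was 2.80-fold above untreated control (1.49, error 0.21), and with palmitate the gap was 1.70-fold (0.77, error 0.21) and was not called. Palmitate cells were 2.20-fold higher in control (1.14, error 0.21) and 1.34-fold higher in Drp1LiKO (0.42, error 0.20). Nos2, detected on all arrays, read -0.56, -0.96, -0.22 and -0.14 in the same order (chr11:78773567-78773626). Its largest difference was 1.77-fold for palmitate in Drp1LiKO (0.82, error 0.21), and none of the 4 was called.

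Each member was counted on its brightest detected probe. A gene counted as compared, here and below, where it was detected on at least 1 array of the pair. That held for all 8, except that Il1a, detected on neither array, left 7 in the untreated genotype comparison and for palmitate in control. Acod1 is among the 7 untreated, although it set no bound there and so could not be called. Untreated, 3 were at least 2-fold higher in Drp1LiKO (Il1b, Il6 and Ptgs2) and none was lower. Among the 15968 genes that could be compared there, 6.16% were higher and 5.04% lower. With palmitate 4 were higher in Drp1LiKO (Il1b, Il6, Acod1 and Il1rn) and none lower, beside 4.46% and 3.76% of 15335 genes. In control cells palmitate went with 4 higher (Il1b, Il6, Acod1 and Ptgs2) and none lower, beside 1.99% and 1.13% of 15221 genes. In Drp1LiKO cells it went with 4 higher (Il1a, Il1b, Il6 and Acod1) and none lower, beside 2.6% and 1.47% of 15870 genes. A gene detected on only 1 array of a pair could be called only toward that array, which holds for the members and for the background alike. The comparisons share arrays, so their counts are not independent of one another.

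**Figure D2:**
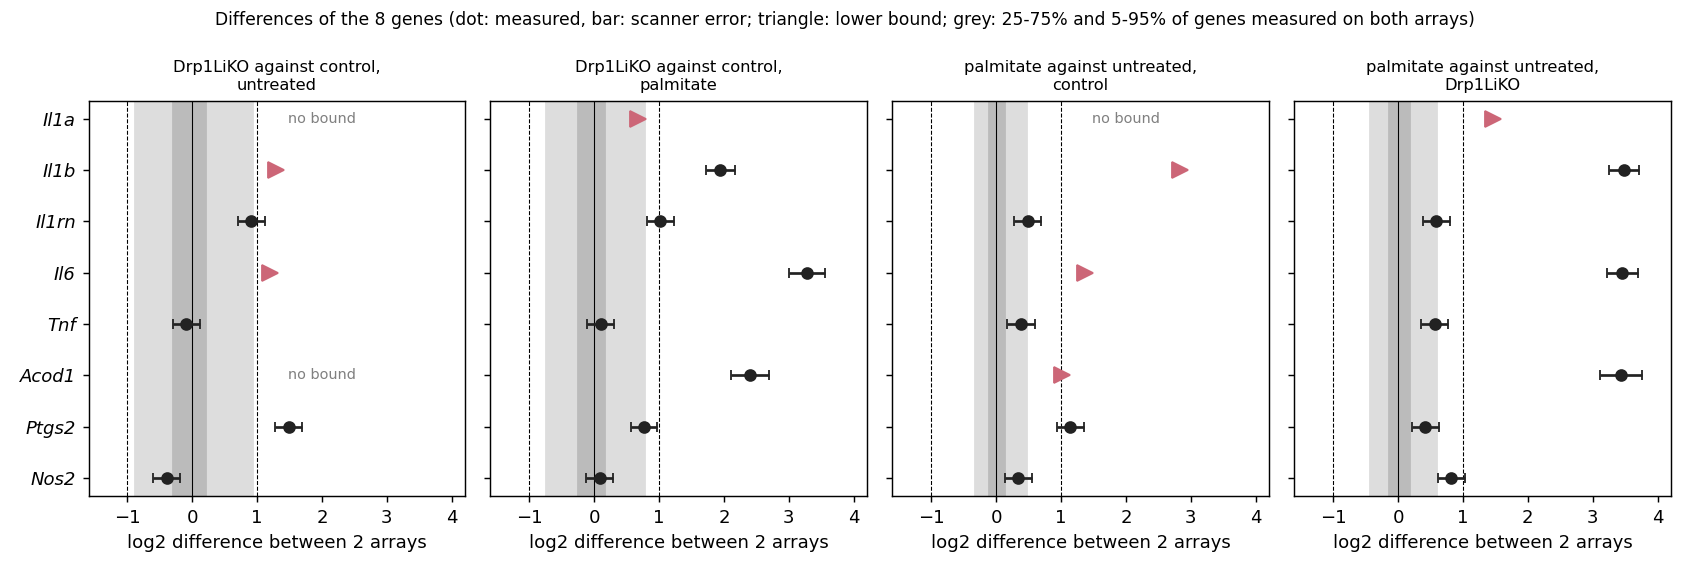
Log2 differences of the 8 genes in the 4 comparisons, each between 2 single arrays. Dots with bars are measured differences with the scanner error, triangles are lower bounds, dashed lines mark 2-fold, and grey bands span the 25th to 75th and the 5th to 95th percentile of the genes measured on both arrays. Il1b, Il6 and Acod1 lie at 3.44 to 3.48 for palmitate in Drp1LiKO, where 95% of all genes lie below 0.60.

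Whether palmitate acted differently in Drp1LiKO could be measured for the 4 genes detected on all arrays. The response in Drp1LiKO minus that in control was 0.11 for Il1rn and 0.19 for Tnf, each on its brighter probe. It was 0.48 for Nos2 and -0.72 for Ptgs2, and none of the 4 reached 2-fold, which 1.68% of 13697 genes did. On the dimmer probes, not well above background in control with palmitate, it was at least 2.83 for Tnf and at least 0.68 for Il1rn. For Il1b, Il6 and Acod1 the undetected control array sets only an upper limit to this difference, of 0.65, 2.09 and 2.42. The larger folds of these 3 genes in Drp1LiKO therefore do not show a larger response to palmitate, since the control folds are lower bounds. For Il1a no limit could be set.

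Among the other genes of the IL-1 family, 13 of the 21 on the array could be compared between genotypes. Untreated, 3 were higher in Drp1LiKO and none lower, with a median over the compared genes of -0.16 beside -0.05 over all genes. These were Casp1, the protease that matures pro-IL-1β (at least 1.68), Il1f9, now Il36g, an IL-36 agonist (at least 1.33), and Il18bp, which binds and blocks IL-18 (1.16). With palmitate the same 3 genes were higher, at least 1.42, at least 1.89 and 1.39, and the receptor gene Il1r1 was lower (-1.17). Il1r1 read 0.08 and 0.13 in the control arrays and -0.85 and -1.04 in the Drp1LiKO arrays. The median with palmitate was -0.06. In Drp1LiKO cells palmitate went with 1 called gene, Il1f9 (1.16), and in control cells with none.

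In the IL-6 family 14 of 15 genes could be compared, and the cytokine gene Il11 stood out among them. Il11 read -3.30 in control and -1.68 in Drp1LiKO untreated, and -3.60 (not well above background) and 0.50 with palmitate. Drp1LiKO was higher by 1.62 untreated and by at least 4.03 with palmitate, and palmitate made 2.18 in Drp1LiKO. Socs3, the feedback inhibitor of the receptor's signalling, read -0.18, -0.19, 0.07 and 1.26, and was called between genotypes with palmitate (1.19) and for palmitate in Drp1LiKO (1.44). No other gene of the list was called in any comparison, and its medians lay between -0.10 and 0.05.

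The TNF family had 12 of 17 genes to compare and no gene called higher in any comparison. The death receptor gene Fas (-1.03) and Tnfsf15 (-1.02) were lower in untreated Drp1LiKO, but neither was called after normexp, a model-based background correction, or with scaling over the probes detected on all arrays. Of the 27 other cytokines, 9 to 13 could be compared. The macrophage growth factor gene Csf1 was lower in Drp1LiKO in both media, from 4.67 to 2.80 untreated and from 4.41 to 2.71 with palmitate, and Il7, a lymphocyte growth factor, was higher (1.72 and at least 1.83). Il15 was higher untreated (1.06). Il12a was detected on 1 array only, control with palmitate, at -2.27.

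The genes around the 3 enzymes differed by list. Of the prostaglandin genes, 17 of 23 could be compared untreated and 4 were higher in Drp1LiKO with none lower: the prostacyclin synthase gene Ptgis (at least 3.26), the phospholipase genes Pla2g4a (at least 1.75) and Pla2g5 (at least 1.63), which release arachidonic acid, and the thromboxane synthase gene Tbxas1 (at least 1.46). With normexp the call of Ptgis alone remained, with detection on both arrays none did, and median scaling added Hpgd and Alox5 as lower. With palmitate Ptgis, Pla2g4a and Pla2g5 were higher (at least 2.85, 1.67 and 1.41), and Hpgd, which inactivates prostaglandins, was lower (-1.27). A dimmer Pla2g4a probe did not follow, reading -4.34 and -4.71 untreated and -2.72 and -3.35 with palmitate in control and Drp1LiKO. A dimmer Ptgis probe, well above background on 1 array, read -4.00 and -3.50 untreated and -3.97 and -3.68 with palmitate. Another, also well above background on 1 array, read -6.21 and -4.13, then -5.66 and -4.89. With all probes of a gene averaged, Ptgis stayed called untreated but not with palmitate. Tbxas1 was lower with palmitate in Drp1LiKO (-1.19). Of the nitric oxide and arginine genes, 4 of 12 were higher in untreated Drp1LiKO: the arginase gene Arg1 (1.44), the argininosuccinate synthase gene Ass1 (1.20) and the guanylate cyclase subunits Gucy1b3 (at least 1.56) and Gucy1a3 (at least 1.04). Arg1 alone was called with palmitate (1.85), and palmitate went with no call in this list. None of the 16 citrate cycle and itaconate genes was called in any comparison, and their medians lay between -0.08 and -0.04.

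Over all genes detected on at least 1 array, the profile nearest to that of Il1b belonged to Marco, a macrophage scavenger receptor, by the root mean square difference of the mean-centred log2 levels over the 4 arrays (0.41). Cxcl3, a neutrophil chemokine (0.45), Il6 (0.60), Ms4a6d (0.60) and Clec4e, a myeloid lectin (0.63), followed. Nearest to Il6 were Ms4a6d (0.32), Cxcl3 (0.35), the collagenase gene Mmp13 (0.37), the macrophage transcription factor gene Spic (0.39) and the IL-27 subunit gene Ebi3 (0.39). Acod1 came behind 6 genes for either of them, at 0.67 from Il1b and 0.54 from Il6. Tnf and Nos2 came behind 1356 and 1293 genes for Il1b, and behind 2000 and 2070 for Il6. These distances rest on 4 arrays and on raised values where an undetected gene lay below the lowest value well above background.

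**Figure D3:**
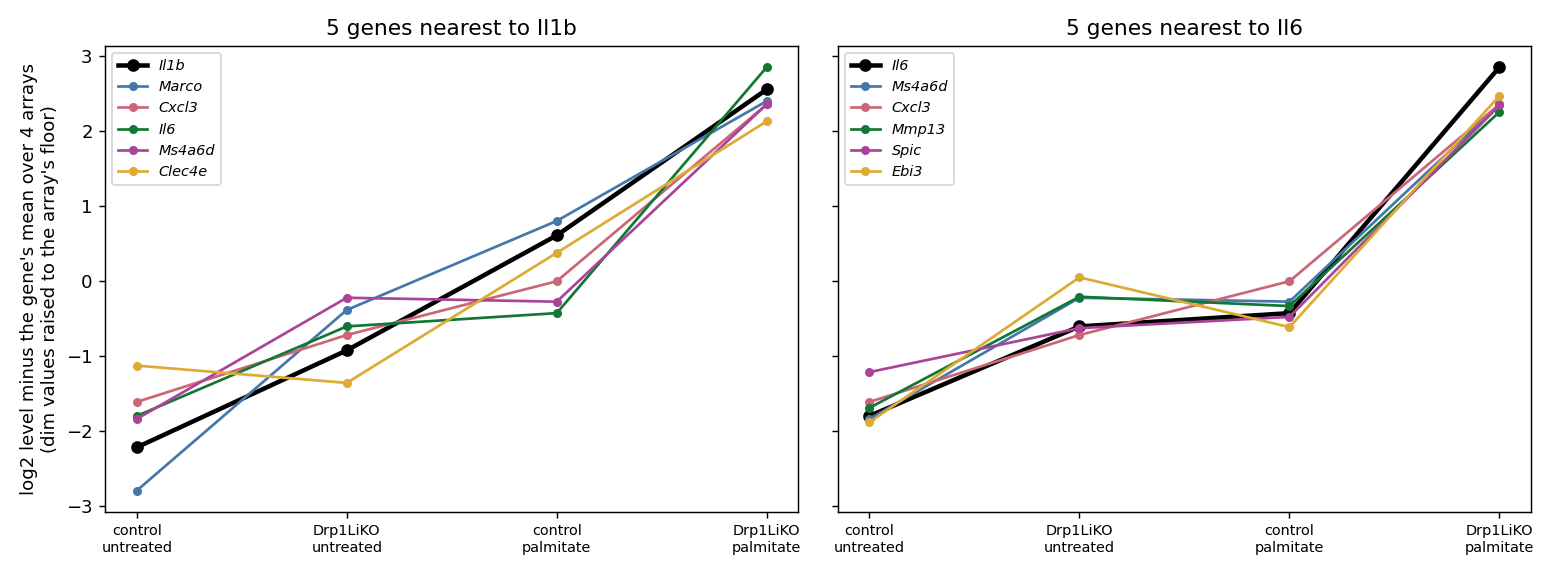
Levels of Il1b and of Il6 with the 5 genes of nearest profile, on the 4 arrays, as log2 level minus the gene's own mean. Undetected values below the lowest value well above background were raised to it. Every curve is highest in Drp1LiKO with palmitate and, but for Clec4e with its 2 raised untreated values, lowest in untreated control.

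Markers of other liver cells moved with genotype. In whole cultures more of a cell type and more RNA per cell cannot be told apart. Of the 20 macrophage and Kupffer cell markers, 14 were well above background in untreated control, 18 in untreated Drp1LiKO, 11 in control with palmitate and 16 in Drp1LiKO with palmitate, and the summed level was 50.2, 99.4, 62.0 and 97.4. Between genotypes 15 of the 18 markers that could be compared untreated and 11 of 16 with palmitate were at least 2-fold higher in Drp1LiKO, with medians of 2.15 and 1.64 and none lower. The pan-macrophage marker Adgre1 read -2.76 and -0.34 untreated and -1.61 and 0.47 with palmitate, in control and Drp1LiKO. The Kupffer cell markers Timd4 and Cd163 were detected on none of the 4 arrays, and Clec4f was detected in the Drp1LiKO arrays only. These cultures came from the pellet of a low-speed spin, a step meant to leave other liver cells in the supernatant. How many of them remained cannot be read from these arrays. The part of these markers in the genotype differences of Il1b, Il6, Acod1, Ptgs2 and Il1rn was not tested.

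With palmitate the macrophage markers moved in both directions. In control cells 2 of 14 were called higher, Marco (3.60) and Adgre1 (1.15), and 4 lower, Cd5l and the complement genes C1qa, C1qb and C1qc, with a median of 0.29. In Drp1LiKO 1 of 18, Marco (2.79), was higher and 7 were lower, with a median of -0.30, beside 3.44 to 3.48 for Il1b, Il6 and Acod1. The 7 were Clec4f, Vsig4, Cd5l, Mrc1, C1qa, C1qb and C1qc. Neutrophil markers were mostly undetected, with 2 to 4 of 11 well above background and S100a9, Cxcr2, Mpo, Camp, Ngp, Retnlg and Mmp8 detected on no array. S100a8 however read -0.93 in Drp1LiKO with palmitate against -3.31 in control, a difference of 2.38, and was at least 3.40 above untreated Drp1LiKO, where it was not detected. Ly6g was detected in the Drp1LiKO arrays only, at -1.85 untreated and -2.13 with palmitate, which put it at least 2.25 and 1.41 above control. The part of these markers in the values of the 8 genes was not tested. The summed level of the neutrophil list, most of it from Csf3r, was 55.1, 56.5, 63.3 and 66.1 in the order of the arrays given above, and that of the lymphocyte markers, 2 to 4 of 11 detected, was between 4.09 and 5.31. Of the lymphocyte markers, Cd3d (-0.78) was detected only in untreated Drp1LiKO and Cd79a (-1.91) only in Drp1LiKO with palmitate. Each was called higher there than in control, and none was called lower. For palmitate in Drp1LiKO, Cd79a and Ms4a1 were called higher and Cd3d lower. Sinusoidal endothelial markers summed to 2.14, 7.29, 2.14 and 4.52, with 7 of 10 called higher in Drp1LiKO untreated, and 5 of 9 higher and 1, Tek, lower with palmitate. Stellate cell markers summed to 70.1, 95.2, 72.2 and 91.1, most of it from Acta2 (6.10, 6.29, 6.13 and 6.15). Of this list 6 of 8 untreated and 4 of 7 with palmitate were called higher in Drp1LiKO, with medians of 2.52 and 1.25. Cholangiocyte markers summed to between 63.6 and 93.9, most of it from Spp1, with 4 of 7 detected on each array and none called.

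**Figure D4:**
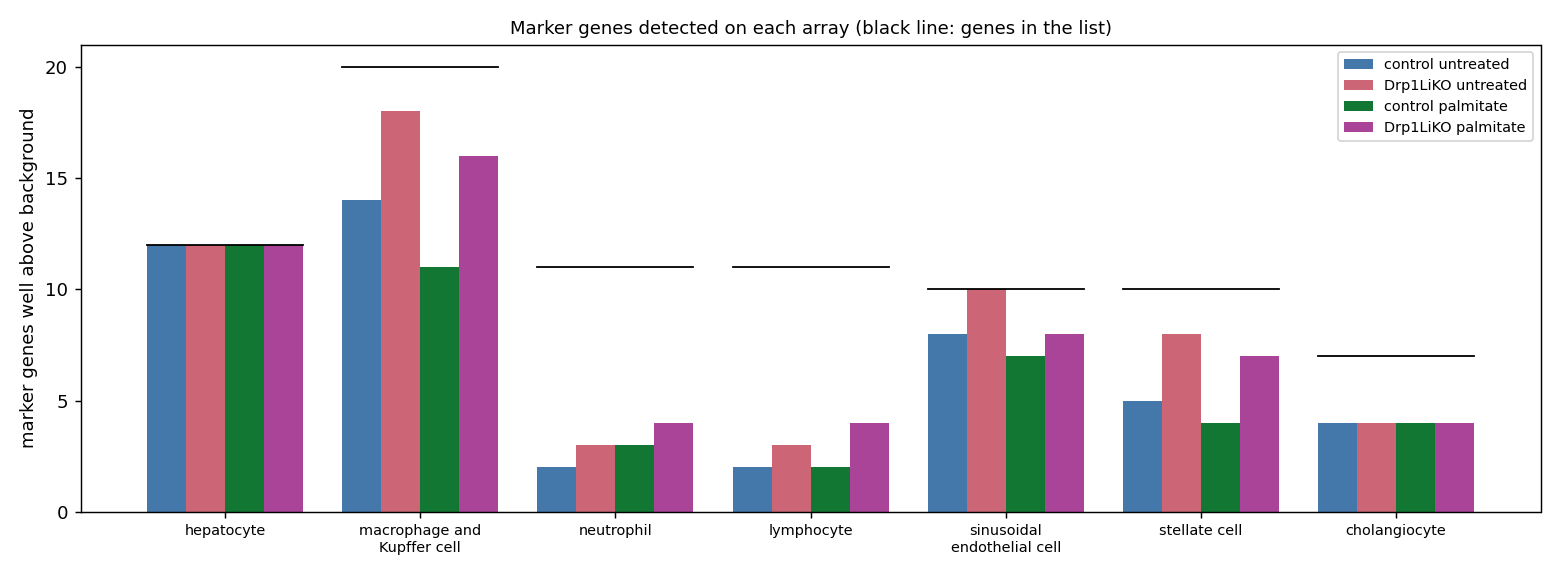
Number of marker genes well above background on each of the 4 arrays, for 7 liver cell types, with a black line at the number of genes in each list. All hepatocyte markers were detected on every array, and the macrophage, endothelial and stellate lists reach their highest counts, 18, 10 and 8, in untreated Drp1LiKO.

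The spots around the member probes were read for signals seen on 1 array alone. Of up to 24 neighbouring spots, none was well above background on the array of Drp1LiKO with palmitate alone, beside a mean of 0.22 around all spots. Around the dimmer Tnf probe 4 neighbours were so on the untreated control array, where that probe was at its brightest, beside a mean of 0.29. Around the Ptgs2 probe 3 were so on the untreated Drp1LiKO array, where Ptgs2 was called, beside a mean of 0.59. Around each other member probe the number was 0 or 1 on every array. The part of these neighbours in the Tnf and Ptgs2 values was not tested.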

How the data were processed

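Total RNA of cultured primary hepatocytes was labelled and hybridised by the authors to 1-colour 60K mouse arrays (SurePrint G3 8x60K v2), 1 array per group. The deposited scanner tables hold spot intensity values from Feature Extraction, version 10.7.1.1 per the file headers and 9.5.1.1 per the labels, background-subtracted and with probe positions on mm9. A deposited table of processed intensity values ranks probes as the scanner tables do, and its 4 columns hold the same sorted values to within 0.1%, as quantile normalisation gives. Raw data of the untreated control array are, per the labels, shared with a sample of another series.

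From these, the log2 processed signal minus each array's 75th percentile over 56605 noncontrol probes was computed (Python 3.11.15, pandas 2.3.3), without outlier spots and with repeat spots averaged. A gene was read on the detected probe with the highest mean. With 1 array per group no test was made, and calls are by 2-fold alone. The 75th percentile intensity per array was 273 to 356. Precision is limited by how few arrays there were. Bounds, background counts and normexp (R 4.3.3, limma 3.58.1, offset 50) are as described beside the results and below. The call rule was tested on simulated data.

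The 8 members and all gene and marker lists were chosen with earlier results of these data known. Named are the members, Dnm1l and Gapdh, up to 4 called genes of each list per comparison with the largest difference, the 5 profiles nearest to Il1b and to Il6, and genes behind counts of 5 or fewer. Other names (Hmox1, Hspa1a, the marker genes, the dimmer Pla2g4a and Ptgis probes) were chosen after their values were seen. Promoters come from a RefSeq table (GRCm38.p6). A planned comparison of protein sequences was not made here.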

Additional observations from a re-analysis of the deposited data

Results flagged for a closer look

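In 2 genes and on 2 further probes an effect had opposite signs in the 2 groups, and with 1 array per group the difference was not tested. The genotype difference of Tnf on its brighter probe was -0.09 untreated and 0.10 with palmitate, 0.19 apart, which is below the scanner error of either. That of Nos2 was -0.39 untreated and 0.09 with palmitate, 0.48 apart. On the dimmer Il1rn probe the palmitate response was at most -0.57 in control and 0.12 in Drp1LiKO, at least 0.68 apart. On the dimmer Tnf probe the genotype difference went from -1.76 untreated to at least 1.07 with palmitate, and the palmitate response from at most -1.18 in control to 1.65 in Drp1LiKO, at least 2.83 apart in either view, with 1 of the 4 arrays not well above background.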

How the results depend on the processing

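Among 8 alternatives, no called difference of a member turned its direction. Members called between genotypes untreated fell from 3 to 1 (Ptgs2) with normexp, which adds 50 to every signal and so shrinks differences of dim probes, and also to 1 where both arrays had to be well above background or all probes of a gene were averaged. Those called for palmitate in control fell from 4 to 1 with normexp (Il1b) and with detection on both arrays (Ptgs2). Members whose palmitate responses differed at least 2-fold went from 0 to 1 with no floor (Il1a), with no filter (Il1a) and with the mean of probes (Tnf). Il1rn between genotypes with palmitate was no longer called with normexp (0.81) or median scaling (0.87), nor Acod1 for palmitate in control with normexp (0.54), median scaling (0.96) or the deposited table (0.96). Normexp also ended the call of Il1a for palmitate in Drp1LiKO (0.72), and the mean of its probes that of Il6 for palmitate in control (0.44). With the mean of its probes, Tnf was called higher between genotypes with palmitate (1.29) and for palmitate in Drp1LiKO (1.11), and lower for palmitate in control (-1.11). Between genotypes, normexp left in the lists Il18bp in both media, Il11 and Socs3 with palmitate, Csf1 and Ptgis in both media, Arg1 in both media and Ass1 untreated, and ended every other list call. Over all genes, calls fell from 1787 to 847 and from 1260 to 556 between genotypes, and from 475 to 135 and from 646 to 227 for palmitate, with normexp. With detection on both arrays they were 836 between genotypes with palmitate, and 137 and 307 for palmitate in control and Drp1LiKO. Without a floor the 2 palmitate counts were 774 and 985, and without a filter the 4 counts were 3488, 2973, 1977 and 2398. Median scaling moved the share of calls that were higher in Drp1LiKO from 55.0% to 43.0% untreated and from 54.3% to 42.5% with palmitate. It lowered the median of all genes between genotypes by 0.16 and 0.15.

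No fit paired by replicate was made because the labels number no replicates, and no replicate was left out because each group held 1 array. Each genotype difference lies within 1 slide. An additive fit of genotype with the slide as a block, which would leave 1 residual degree of freedom and take the genotype difference as equal on both slides, was not made, and for palmitate the slide cannot be told apart from the treatment. Probes near the lowest detectable signal limit Il1a, Il6, Acod1 and Il1b in untreated control to bounds.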
